A study of Sus scrofa with 36 samples.

Results

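Keratins are the intermediate filament proteins of epithelial cells, and they were measured here in the mammary gland of 36 pigs under ovarian steroid and prolactin-directed treatments. Probe sets were chosen by annotation to 1 gene symbol of the form KRT followed by a number, keratin-associated proteins left out, and each gene was represented by its probe set with the highest mean over the 36 arrays. This gave 4 keratin genes of the 6360 genes with 1 symbol, from 5 of 20792 probe sets. They were KRT8 (Entrez Gene 100152077), KRT18 (100126286) and KRT19 (100515339), all of simple epithelium, and KRT10 (100519971), of cornified epidermis. KRT8 alone had a second probe set. Of the listed keratins, 3 of 7 simple and 1 of 5 cornified ones were measured. None of the 4 basal keratins, such as KRT5 and KRT14, of the 12 other stratified ones or of the 26 hair and root sheath ones was represented by a probe set with its symbol alone, so the basal layer of the gland is not described by its own keratins here.

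A keratin filament is built from pairs of 1 type I and 1 type II chain, and each kind of epithelium uses its own pairs. In the mammary gland the luminal cells that line the ducts carry the simple pair KRT8 (type II) and KRT18 (type I) with KRT19 (type I), whereas the outer basal or myoepithelial cells carry KRT5 and KRT14. KRT10 is the type I partner of KRT1 in the suprabasal layers of skin. In the pig gene table of assembly Sscrofa11.1, 1 gene lies between KRT8 and KRT18.

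The animals were female peripubertal Yucatan miniature swine aged 5 months, with 9 groups of 4 pigs and 1 array per pig. On the first day 32 pigs lost their ovaries and 4 had a sham operation that left them in place. The sham group received saline for 13 days. All 32 ovariectomized pigs were first kept for 8 days on bromocriptine, which acts on dopamine receptors and lowers prolactin, and then 1 of 8 treatments for 5 days. These were bromocriptine alone (B), with estrogen (BE), with progesterone (BP) or with both steroids (BEP), and haloperidol, a dopamine antagonist that raises prolactin, alone (H), with estrogen (HE), with progesterone (HP) or with both (HEP). Every pig was given BrdU, a label of DNA synthesis, 24 hours before the end. All 8 ovariectomized groups therefore share the surgery and the first course of bromocriptine, and a difference from sham cannot be assigned to either. Replicates were different pigs, lettered A to D, so p-values measure the spread between animals.

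All values are RMA values of the authors, taken as log2, so that a difference of 1 is a doubling. Changes are given as log2 differences with their standard error (SE), and called where the p of limma, adjusted by Benjamini-Hochberg over all 20792 probe sets, was under 0.05. Where groups are said not to overlap, this describes their own pigs. No share of all probe sets is given beside it, so how usual such separation is cannot be read from it. Array medians ran from 7.83 to 7.91. All 3 simple keratins were above the array's median on all 36 arrays. KRT10 was above it on 28 and above the lower quartile on all 36. Of the 16 measured luminal markers, 13 were above the lower quartile on every array, as were 8 of 11 basal and myoepithelial ones. Of 33 listed epidermal markers 5 were measured. Involucrin (IVL) was above the lower quartile on 36 arrays, CALML5 on 35, SPINK5 and KLK7 on 2 each and SERPINB2 on 0, so 3 of the 5 were dim on nearly all arrays.

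Array A of B stood apart in the simple keratins. It had a skeletal muscle marker level (the mean log2 value of 7 of 12 listed genes) of 13.14, the highest of all, against 4.88 to 6.65 in the other 3 B pigs. Other arrays without estrogen were also high, C of H at 11.63, A of BP at 10.64, and C and A of HP at 9.93 and 9.78. The groups given estrogen (BE, BEP, HE and HEP) ran from 4.52 to 5.67. Its luminal marker level (16 of 22 genes) was 8.08, against 9.52 to 9.88. The adipocyte level (8 of 10 genes) was 10.47, inside the B range of 9.09 to 10.48. Results are therefore given with and without this array where it moves them, and its part in them was otherwise not tested. In whole tissue, fewer luminal cells and less keratin RNA per cell cannot be told apart.

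KRT8, the type II chain of the simple pair, had the lowest SD of the 4 genes over the 36 arrays, 0.30. Its values were 12.97, 12.75, 12.75 and 12.94 in the sham pigs A to D. They were 11.32, 12.53, 12.56 and 12.77 in B. The B group held the lowest value of all 36, in array A, and its other 3 pigs lay between 12.53 and 12.77. In BE the values were 12.61, 12.79, 12.64 and 12.51. In BP they were 12.10, 12.75, 12.33 and 12.79. The BEP pigs had 12.73, 12.48, 12.59 and 12.57. These 3 groups overlapped one another. Under haloperidol alone KRT8 was 12.71, 12.50, 12.39 and 12.30. In HE it was 12.41, 11.96, 12.29 and 12.59, and in HP 12.25, 12.46, 12.43 and 12.48. The HEP values were 12.56, 12.87, 12.66 and 12.75. Every HEP pig was above every HP pig, by a small margin. The group means ran from 12.30 ± 0.66 in B (SD, n = 4) to 12.85 ± 0.12 in sham (SD, n = 4), in the order sham, HEP, BE, BEP, BP, H, HP, HE and B. Each of the 8 gaps between neighbours in that order was smaller than the within-group SD of 0.28.

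KRT18, the type I partner of KRT8, was 11.96, 11.30, 11.45 and 11.72 in sham. In B it was 9.43, 11.11, 10.70 and 11.35, again with array A lowest of all 36. In BE it was 10.60, 10.81, 11.00 and 10.08. Every BE pig was below every sham pig. The BP values were 10.62, 10.26, 10.76 and 11.36. The BEP values were 11.51, 10.46, 11.17 and 11.07. In both groups 1 pig reached into the sham range. KRT18 was 11.05, 10.94, 10.34 and 10.49 in H. It was 10.48, 10.99, 10.55 and 11.16 in HE, and 10.70, 10.40, 10.53 and 10.74 in HP. None of these 12 pigs reached the sham range. In HEP the values were 11.18, 11.86, 11.99 and 11.79, above all HE and HP pigs and overlapping sham. Group means ran from 10.59 ± 0.16 in HP (SD, n = 4) to 11.70 ± 0.36 in HEP (SD, n = 4). HEP and sham led, and the gap of 0.56 from sham to the next group, BEP, was the single gap between neighbours above the within-group SD of 0.44.

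KRT19, a type I keratin of ducts that lacks the usual tail domain, was 13.07, 12.47, 12.59 and 13.02 in sham. It was 10.78, 12.85, 12.52 and 12.89 in B. Array A was again the lowest of all 36, and the other 3 B pigs lay within the sham range. In BE it was 12.37, 12.52, 12.61 and 11.66, and in BP 11.65, 11.79, 12.08 and 12.45. In BEP it was 12.99, 12.50, 12.77 and 12.79, above every BP pig. The haloperidol groups without both steroids were low. KRT19 was 11.61, 11.99, 11.67 and 11.99 in H. The HE values were 11.79, 11.74, 11.29 and 12.13, and the HP values ran from 11.83 to 12.06 around a mean of 11.94 ± 0.11 (SD, n = 4). All 12 pigs were below the lowest sham pig. In HEP it was 12.25, 12.81, 12.89 and 12.61, above all 12. The order of the means was sham, BEP, HEP, BE, B, BP, HP, H and HE, from 12.79 ± 0.30 (SD, n = 4) down to 11.74 ± 0.34 (SD, n = 4), with no gap between neighbours above the within-group SD of 0.43.

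KRT10, the cornified type I keratin, spread widely within groups. It was 8.40, 8.52, 7.64 and 8.60 in sham and 7.58, 7.71, 7.44 and 8.78 in B. In BE it was 7.93, 7.68, 7.83 and 8.88, and in BP 8.75, 9.09, 7.62 and 8.88. In each of these groups 1 pig lay well away from the other 3. In BEP it was 8.11, 7.95, 8.59 and 8.18. In H it was 8.29, 8.73, 9.04 and 8.96, and in HE 8.66, 8.55, 9.02 and 9.11. H and HE held no value under 8.29. In HP it was 8.32, 8.67, 8.89 and 8.26, and in HEP 7.88, 8.07, 9.09 and 8.42. Means ran from 7.88 ± 0.61 in B (SD, n = 4) to 8.83 ± 0.27 in HE (SD, n = 4), and no neighbouring means were further apart than the within-group SD of 0.46.

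**Figure D1:**
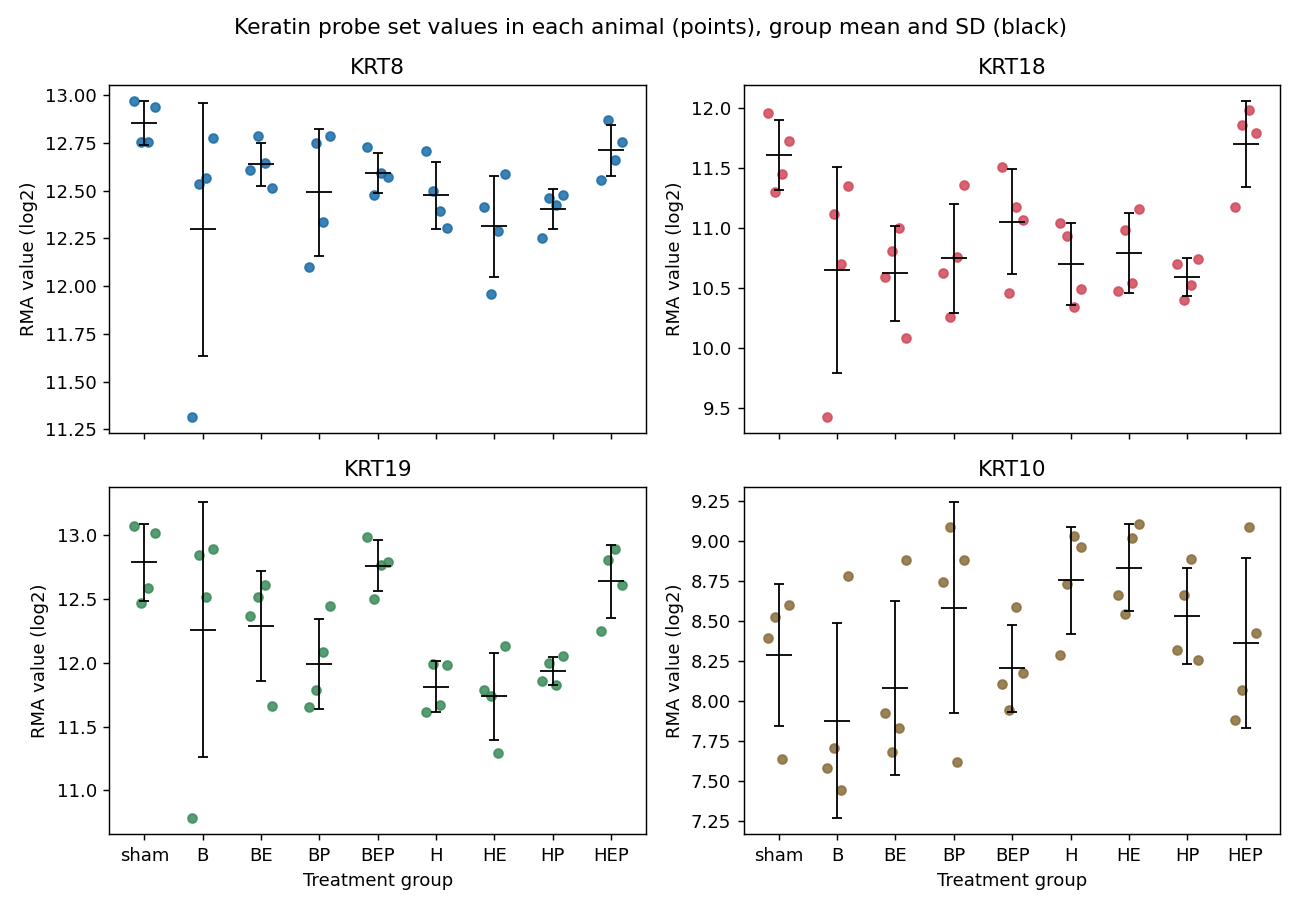
RMA values (log2, vertical axes with separate ranges) of KRT8, KRT18, KRT19 and KRT10 in each pig (points), with group mean and SD in black, over the 9 groups of 4 pigs. Array A of B is the lowest point of the 3 simple keratins, at 11.32, 9.43 and 10.78, and HEP lies near sham in all 3.

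The first question of the design is what estrogen did across the 4 backgrounds to which it was added, with 16 pigs against 16. None of the 4 keratins was called by limma, in a comparison that called 35.1% of the 20792 probe sets (17.5% up, 17.6% down). At an unadjusted p under 0.05, 2 of 4 were higher, against 44.5% of all probe sets in either direction. KRT18 was 0.37 ± 0.15 higher with estrogen (SE; adjusted p = 0.0592 by limma), with 11 of 16 estrogen pigs above the mean without it. KRT19 was 0.36 ± 0.15 higher (SE; adjusted p = 0.0633 by limma), with 12 of 16 above. Each passed when some single arrays were left out, and moved further from the threshold without others. Without array A of B, KRT18 was 0.27 ± 0.13 higher (SE; adjusted p = 0.105 by limma) and KRT19 0.23 ± 0.11 higher (SE; adjusted p = 0.091), and KRT8 differed by 0.06 ± 0.08 (SE). With all arrays the change of KRT8 was 0.15 ± 0.10 (SE), with a 95% interval from -0.07 to 0.36. For KRT10 it was -0.07 ± 0.16 (SE), with an interval from -0.39 to 0.26. The median change of the 4 was 0.25, beside 0.01 over all probe sets.

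Counts over the other lists stand beside the 35.1% of all probe sets called by estrogen. Of the 16 measured luminal markers 7 rose and 1 fell, with a median of 0.46. Without array A of B, 7 rose and 3 fell, with a median of 0.37 (35.6% of all probe sets called). With all arrays the largest were the growth factor AREG, which rose by 3.19 ± 0.27 (SE), and the progesterone receptor PGR, by 2.26 ± 0.26 (SE). PROM1, a membrane protein of luminal cells, fell by 1.19, and LTF, the milk iron-binding protein lactoferrin, rose by 1.03 ± 0.29 (SE). EPCAM, a surface adhesion protein of epithelium, was 0.45 ± 0.18 higher (SE; adjusted p = 0.052 by limma). Of the 8 measured genes of 21 that anchor keratin at desmosomes and hemidesmosomes, 3 rose and 2 fell. Plakoglobin (JUP), which links desmosomal cadherins to the plaque, rose by 0.76 ± 0.14 (SE), and the integrin ITGA6 rose by 0.95 ± 0.23 (SE). PERP, a desmosomal membrane protein, also rose, by 0.33. Periplakin (PPL), which ties keratin to the plaque, fell by 1.84, and dystonin (DST) fell by 0.25. Desmoplakin (DSP), the main keratin anchor of desmosomes, was 0.31 ± 0.16 higher and did not pass (SE; adjusted p = 0.126 by limma).

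Among 7 measured intermediate filament and lamin genes that are not keratins, LMNB1, a nuclear lamina protein, rose by 2.23 ± 0.24 (SE) and GFAP, a glial filament protein, by 1.35 ± 0.20 (SE). SYNM, the filament protein synemin, fell by 0.86. Vimentin (VIM), the filament of mesenchyme, changed by 0.08 ± 0.08 (SE; adjusted p = 0.437 by limma). Of 9 measured transcription factors of epithelium 1 was called, CEBPA, which fell by 0.62. Without array A of B, 2 of the 9 were called lower. The 8 measured adipocyte markers included 6 that fell, and of 7 muscle markers 6 fell, while all 5 cell division genes rose, TOP2A by 3.30 ± 0.32 (SE). The milk protein gene CSN2 differed by 0.07 ± 0.68 (SE; adjusted p = 0.949 by limma). Counts for the remaining lists are given without array A of B, where 35.6% of all probe sets were called. Of 11 basal and myoepithelial markers 3 rose and 2 fell, and of 5 epidermal ones 2 rose. Of 6 endothelial markers 4 fell, and of 5 leukocyte ones 3 fell. Of 6 fibroblast markers 2 rose, and of 4 melanocyte ones 1 rose. With all arrays the basal and myoepithelial genes OXTR, ITGA6 and ACTA2 were called higher, and ACTG2, EGFR and DST lower. The part of adipocyte, muscle, endothelial, leukocyte, fibroblast, melanocyte and cell division levels in the keratin values was not tested.

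The estrogen change was also read within each of its 4 backgrounds. Added to bromocriptine alone (BE against B), estrogen gave 0.34 ± 0.21 for KRT8, -0.03 ± 0.31 for KRT18 and 0.03 ± 0.30 for KRT19 (SE). These values rested on array A of B, without which they were 0.01 ± 0.17, -0.43 ± 0.27 and -0.46 ± 0.23 (SE). Added to bromocriptine with progesterone (BEP against BP) it gave 0.10 ± 0.21, 0.30 ± 0.31 and 0.77 ± 0.30 for the same genes (SE). Added to haloperidol alone (HE against H) it gave -0.16 ± 0.21, 0.09 ± 0.31 and -0.08 ± 0.30 (SE). None of the 4 keratins was called by limma in these 3 comparisons, where 3.78%, 0.784% and 19.9% of all probe sets were called. Unadjusted p-values under 0.05 were found for 0, 1 and 0 of 4 (16.7%, 16.4% and 33.3% of all), the 1 being KRT19 in BEP against BP. Every BEP pig was above every BP pig for KRT19.

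Added to haloperidol with progesterone (HEP against HP), estrogen came with a rise of KRT18 by 1.11 ± 0.31 (SE; adjusted p = 0.0135 by limma), a 2.16-fold difference. This was 1 of 4 keratins called, against 16.5% of all probe sets, and 8.84% called higher. The 4 HEP values of KRT18, 11.18 to 11.99, lay above the 4 HP values, 10.40 to 10.74. The rise stayed past the threshold with each array left out in turn, with adjusted p-values up to 0.0482 by limma. KRT19 was 0.70 ± 0.30 higher in HEP (SE; adjusted p = 0.102 by limma) and KRT8 0.31 ± 0.21 higher (SE; adjusted p = 0.32 by limma), both with no overlap between the groups. KRT10 differed by -0.17 ± 0.32 (SE). The group of array A of B is not in this contrast but enters the shared spread, and without that array KRT19 passed as well (adjusted p = 0.0217 by limma) and KRT18 remained called (adjusted p = 0.00335).

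Beside the 8.84% called higher, 7.7% of all probe sets were called lower, and 2 of 4 keratins had an unadjusted p under 0.05 (31.8% of all). In the same contrast the luminal marker level was 9.87 to 10.03 in HEP and 8.99 to 9.96 in HP, and 1 of 16 luminal markers rose and 1 fell. These were AREG, by 3.87 ± 0.54 (SE), and PROM1, which fell by 1.90. Of the keratin anchors JUP rose by 0.88 ± 0.29 (SE) and PPL fell by 2.16, leaving 6 of 8 that did not pass. LMNB1 rose by 2.59 ± 0.49 (SE) and was the 1 called of 7 other filament genes. IVL, of the cornified envelope, rose by 1.01 ± 0.31 (SE) as the 1 called of 5 epidermal markers. The adipocyte level was 7.66 to 9.13 in HEP and 9.72 to 10.43 in HP, without overlap, and the muscle level 4.52 to 5.67 against 4.83 to 9.93. Their part in the KRT18 rise was not tested.

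**Figure D2:**
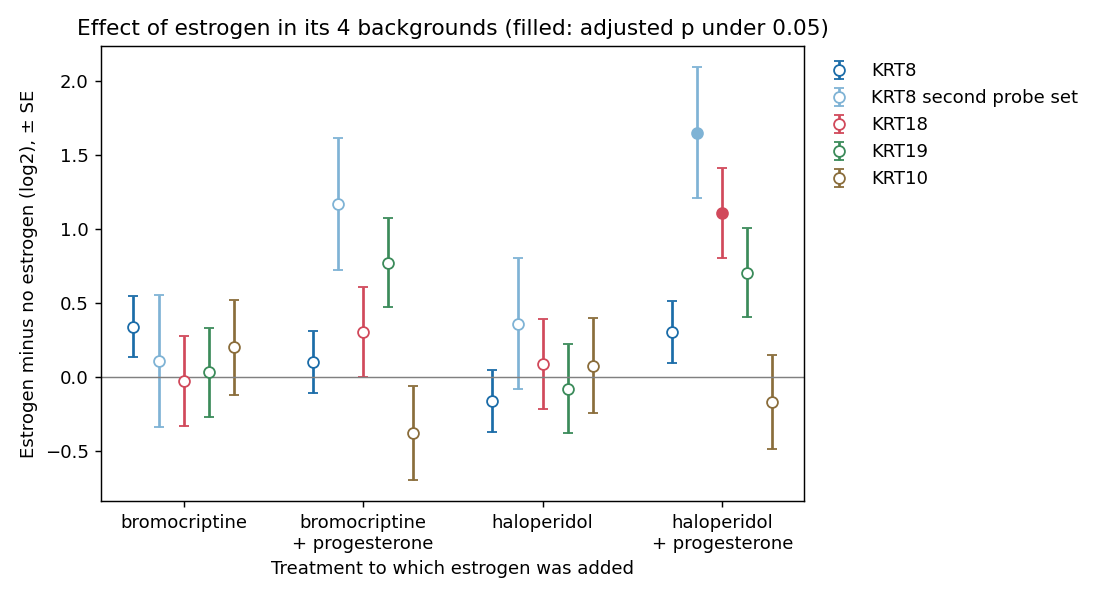
Change in RMA value (log2, with SE) between pigs with and without estrogen in its 4 backgrounds, for the 4 keratins and the second KRT8 probe set, 4 pigs against 4 in each. Filled points passed an adjusted p of 0.05; these are KRT18 at 1.11 and the second KRT8 probe set at 1.65, both with haloperidol and progesterone.

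Whether the estrogen change itself depended on progesterone was tested as an interaction. No keratin was called by limma, beside 0.25% of all probe sets, and 2 of 4 had an unadjusted p under 0.05 (10.4% of all). The estrogen change was larger with progesterone than without it by 0.76 ± 0.30 for KRT19 (SE; adjusted p = 0.352 by limma) and by 0.68 ± 0.31 for KRT18 (SE; adjusted p = 0.44 by limma). Without array A of B the KRT19 interaction was 1.01 ± 0.22 and passed (SE; adjusted p = 0.0321 by limma), beside 0.279% of all probe sets. That array carries the value of 10.78 in a group without either steroid, so the result for KRT19 rests on whether it is included. For KRT8 the interaction was 0.11 ± 0.21 (SE; 0.28 ± 0.16 without array A of B), with a 95% interval from -0.31 to 0.54.

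The interaction of estrogen with haloperidol was not called for any of the 4 by limma (7.48% of all probe sets called), with 0 of 4 at an unadjusted p under 0.05 (24.6% of all). The values were 0.46 ± 0.31 for KRT18, -0.15 ± 0.21 for KRT8, -0.09 ± 0.30 for KRT19 and 0.04 ± 0.32 for KRT10 (SE). The last 3 changed sign under some settings. For the interaction of haloperidol with progesterone no keratin and 0% of all probe sets were called by limma. KRT10 alone had an unadjusted p under 0.05 there (4.67% of all), at -0.76 ± 0.32 (SE; adjusted p = 1 by limma). The interaction of all 3 treatments called no keratin and 0% of probe sets by limma, with 0 of 4 at an unadjusted p under 0.05 (4.42% of all).

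Averaged over 16 pigs against 16, haloperidol in place of bromocriptine called none of the 4 keratins by limma, beside 6.98% of all probe sets. At an unadjusted p under 0.05 there was 1 of 4, KRT10, beside 22.3% of all. KRT10 was 0.43 ± 0.16 higher with haloperidol (SE; adjusted p = 0.096 by limma), in 14 of 16 pigs above the bromocriptine mean. KRT19 was lower by 0.29 ± 0.15 on average (SE; 95% interval from -0.60 to 0.01; adjusted p = 0.245 by limma), with 3 of 16 haloperidol pigs above the bromocriptine mean. Without array A of B, KRT19 fell by 0.42 ± 0.11 (SE; adjusted p = 0.0168 by limma), and 6.64% of all probe sets were called. KRT8 differed by -0.03 ± 0.10 and KRT18 by 0.18 ± 0.15 (SE). Within its 4 backgrounds (H against B, HE against BE, HP against BP and HEP against BEP) haloperidol called no keratin by limma, beside 0.0337%, 10.5%, 0% and 1.08% of all probe sets. Before adjustment, p was under 0.05 for 1, 1, 0 and 1 of 4 (10.5%, 25.8%, 4.84% and 14.3% of all). KRT10 was 0.88 ± 0.32 higher in H than in B (SE; adjusted p = 0.318 by limma; 0.78 ± 0.35 without array A of B) and 0.75 ± 0.32 higher in HE than in BE (SE; adjusted p = 0.127 by limma). With progesterone it was -0.05 ± 0.32 and 0.16 ± 0.32 apart (SE).

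Progesterone, averaged in the same way, called no keratin by limma, beside 0.0914% of all probe sets. At an unadjusted p under 0.05 there were 2 of 4 (4.92% of all). KRT18 was 0.33 ± 0.15 higher (SE; adjusted p = 0.977 by limma) and KRT19 0.31 ± 0.15 higher (SE; adjusted p = 1 by limma), each with 11 of 16 progesterone pigs above the mean without it. Without array A of B the values were 0.23 ± 0.13 for KRT18, 0.18 ± 0.11 for KRT19 and 0.04 ± 0.08 for KRT8 (SE). Within its 4 backgrounds (BP against B, BEP against BE, HP against H and HEP against HE) progesterone called no keratin by limma, beside 0.024%, 0.149%, 0% and 0.476% of all probe sets. Unadjusted, p was under 0.05 for 1, 0, 0 and 2 of 4 (10.3%, 2.95%, 2.73% and 9.08% of all). The 2 were in HEP against HE, where KRT18 was 0.91 ± 0.31 higher (SE; adjusted p = 0.243 by limma) and KRT19 0.90 ± 0.30 higher (SE; adjusted p = 0.238 by limma), both without overlap. Array A of B is in neither group and enters only the shared spread. Without it the KRT19 difference passed (adjusted p = 0.036 by limma), beside 0.611% of all called. On average KRT8 differed by 0.12 ± 0.10, with a 95% interval from -0.09 to 0.33, and KRT10 by 0.03 ± 0.16 (SE).

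**Figure D3:**
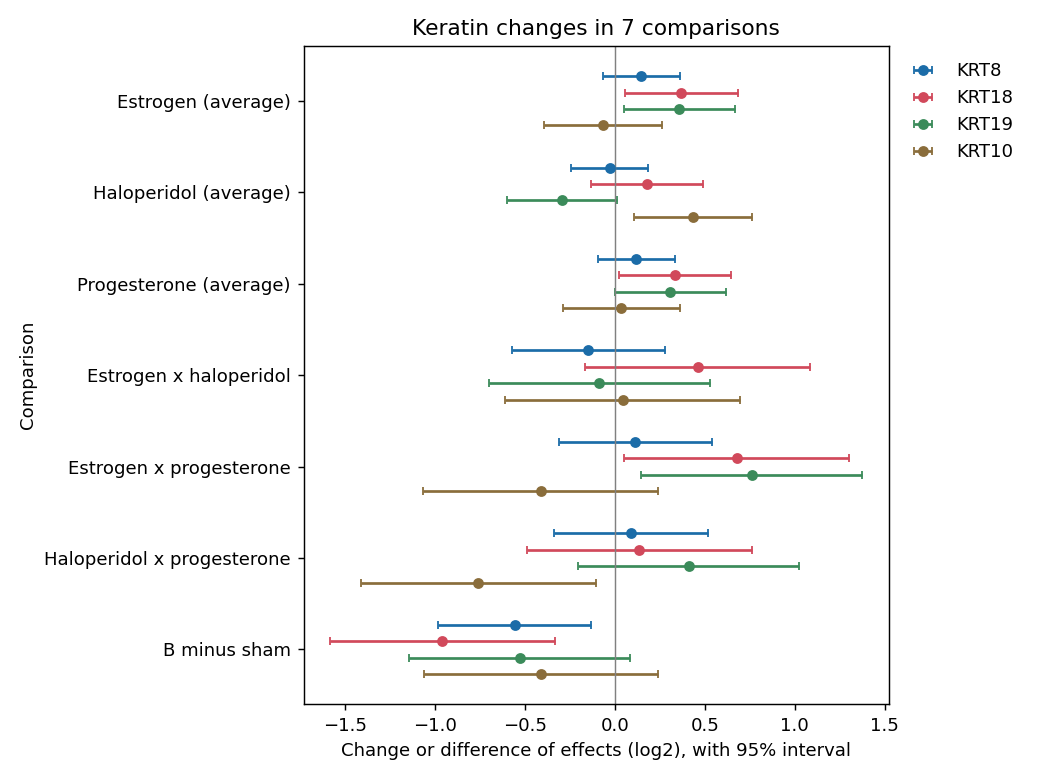
Changes of KRT8, KRT18, KRT19 and KRT10 (points; log2, with 95% interval) in the 3 average effects, the 3 interactions and B against sham. No point passed the adjusted threshold. The intervals of KRT18 and KRT19 lie above 0 for estrogen, for progesterone and for the interaction of these. That of KRT10 lies above 0 for haloperidol and below 0 for haloperidol with progesterone. The points of B minus sham are below 0 for all 4, and the intervals of KRT19 and KRT10 there cross 0.

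The sham group, with ovaries and no dopamine drug, had the highest mean of KRT8 and KRT19 and the second highest of KRT18. In B all 4 keratins were lower and none was called by limma, beside 4.18% of all probe sets (2.62% lower). At an unadjusted p under 0.05 there were 2 of 4, both lower (19.4% of all). KRT18 differed by -0.96 ± 0.31 (SE; adjusted p = 0.0688 by limma), KRT8 by -0.56 ± 0.21 (SE; adjusted p = 0.124), KRT19 by -0.53 ± 0.30 and KRT10 by -0.41 ± 0.32 (SE). These values rested in large part on array A. Without it they were -0.55 ± 0.27 for KRT18, -0.23 ± 0.17 for KRT8, -0.04 ± 0.23 for KRT19 and -0.31 ± 0.35 for KRT10 (SE), with adjusted p-values of 0.309 or more by limma and 2.94% of all probe sets called. Leaving out array D of B instead, KRT18 fell by 1.19 and KRT8 fell by 0.72, and both passed. Of 16 luminal markers 3 fell (AREG, LTF and PGR), and of 11 basal and myoepithelial markers 3 fell, the smooth muscle actin ACTA2 by 0.71, CNN1 by 1.00 and TAGLN by 0.83. With array A of B left out, AREG, PGR and CNN1 stayed called, while LTF (adjusted p = 0.0525 by limma), ACTA2 (fell by 0.45; adjusted p = 0.105) and TAGLN (fell by 0.62; adjusted p = 0.182) did not. Of the 11 basal and myoepithelial markers, 1 was then called higher and 1 lower.

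Against sham, HE showed the second called change, a fall of KRT19 by 1.05 ± 0.30 (SE; adjusted p = 0.0447 by limma), a 2.07-fold difference. It was 1 of 4 keratins, beside 3.61% of all probe sets (1.61% lower), and 3 of 4 had an unadjusted p under 0.05 (19.3% of all). The highest HE pig was 12.13 and the lowest sham pig 12.47. The call was close to the threshold and was lost when any of 16 of the 36 arrays was left out, with adjusted p-values up to 0.133. These were A, B and D of sham, A, B and C of HE, A, C and D of H, C and D of HP, C and D of BEP, B and D of HEP, and A of BE. Array A of B, the lowest of all 36 in KRT19, is in neither group and enters only the shared spread. Without it the adjusted p was 0.00417 by limma, which is not separate support for the fall. The luminal marker level was 10.12 to 10.40 in HE and 9.75 to 10.11 in sham, so the mean of the list was higher in HE, though its members moved both ways. Of 16 luminal markers MUC1 rose by 3.94 ± 0.86 (SE) and CLDN3, a tight junction protein, by 1.74 ± 0.34 (SE), and the transcription factor FOXA1 fell by 2.60. Among keratin anchors PPL fell by 2.30 and DST by 1.03.

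KRT19 and KRT18 were also lower in H and HP than in sham without passing the threshold. KRT19 differed by -0.97 ± 0.30 in H (SE; adjusted p = 0.0607 by limma) and by -0.85 ± 0.30 in HP (SE; adjusted p = 0.124). KRT18 differed by -0.91 ± 0.31 in H (SE; adjusted p = 0.0893 by limma) and by -1.02 ± 0.31 in HP (SE; adjusted p = 0.065). Other cell markers differed as well. In H the adipocyte level was 10.18 to 10.50, against 8.63 to 9.67 in sham. The muscle level was 6.91 to 11.63 against 5.48 to 6.65, and neither of these overlapped. The luminal ranges, 9.31 to 9.74 in H and 9.75 to 10.11 in sham, did not overlap but nearly touched. In HP the adipocyte level was 9.72 to 10.43, the muscle level 4.83 to 9.93 and the luminal level 8.99 to 9.96. Their part in the keratin values was not tested. No keratin was called in either by limma, beside 4.04% of all probe sets in H and 2.75% in HP, with 2 and 3 of 4 at an unadjusted p under 0.05 (18.9% and 16.2% of all). Without array A of B, KRT18 and KRT19 passed in both, where 4.6% and 3.22% of probe sets were called. KRT8 then passed beside KRT19 in HE against sham at -0.54 ± 0.15 (SE, adjusted p = 0.0393 by limma), beside 4.31% of all called. That array is in none of these groups and enters only the shared spread, so these calls are not separate support. No keratin was called by limma in HEP against sham either (0.731% of all probe sets), with 0 of 4 at an unadjusted p under 0.05 (17.3% of all). HEP differed from sham by 0.09 ± 0.31 for KRT18, -0.15 ± 0.30 for KRT19 and -0.14 ± 0.21 for KRT8 (SE). The 95% intervals of these, from -0.53 to 0.72, from -0.76 to 0.47 and from -0.57 to 0.28, leave room for changes larger than some of those above. In BE, BP and BEP against sham limma called no keratin, beside 0.63%, 0.13% and 0.164% of all probe sets, with 1, 2 and 0 of 4 at an unadjusted p under 0.05 (15.7%, 10.6% and 14.1%). KRT18 differed by -0.99 ± 0.31 in BE, -0.86 ± 0.31 in BP and -0.56 ± 0.31 in BEP (SE), and KRT19 by -0.50 ± 0.30, -0.80 ± 0.30 and -0.03 ± 0.30 (SE). All of these comparisons share the same 4 sham pigs. Over all 27 comparisons fitted, 2 of 108 keratin changes were called, beside 4.43% of all changes over the 20792 probe sets. They were KRT18 in HEP against HP and KRT19 in HE against sham.

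The second KRT8 probe set did not follow the first. Over all 36 arrays it spread with an SD of 0.83 against 0.30, and the r between them was 0.54. Its values were 10.03, 9.09, 8.77 and 9.91 in HP and 10.36, 11.18, 11.69 and 11.18 in HEP. No HEP pig overlapped HP, and the rise was 1.65 ± 0.45 (SE; adjusted p = 0.0116 by limma), lost without array C of HP (adjusted p = 0.0595). It also rose with estrogen on average, by 0.82 ± 0.22 (SE; adjusted p = 0.00484 by limma), with 13 of 16 estrogen pigs above the mean without it. The first probe set changed by 0.15 ± 0.10 in that comparison. The remaining values were 10.63, 10.68, 11.12 and 10.19 in sham, 8.67, 11.05, 10.63 and 11.13 in B, and 10.52, 11.01, 10.94 and 9.45 in BE. In BP they were 9.86, 8.60, 9.81 and 9.92, and in BEP 10.46, 10.52, 10.83 and 11.06. BP lay wholly below BEP. In H they were 9.45, 10.27, 8.79 and 9.25, and in HE 9.71, 9.69, 9.15 and 10.65.

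A further probe set, annotated to 2 symbols of which 1 is KRT7, was left out of the keratin genes by the rule. The second KRT8 probe set had an r of 0.98 with it over 36 arrays and 0.96 within groups. With the first KRT8 probe set the within-group r was 0.49, and 0.09 without array A of B, against 0.94 for the 2-symbol probe set. Which transcripts the second KRT8 probe set reads was not tested, and its changes are not given here as changes of KRT8.

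KRT8 and KRT18, the 1 pair of known partners with both chains measured, varied together from pig to pig once group means were removed. Pearson's r was 0.688 (permutation p = 0.00446) and Spearman's rho 0.589 (permutation p = 0.00174), over 36 pigs, with 1 pair computed and so no further adjustment. Without the 2 pigs farthest from the median of KRT8, A of B and B of HE, r was 0.539 (permutation p = 0.00684), and without A of B alone it was 0.426 (permutation p = 0.0376). The coefficient was smaller without that array. As a description, r within groups was 0.87 for KRT18 with KRT19 and 0.78 for KRT8 with KRT19, or 0.78 and 0.48 without that array. KRT10 had an r of 0.09 with KRT18, 0.11 with KRT19 and 0.23 with KRT8. The points share their array, and thus the mix of tissue on it.

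**Figure D4:**
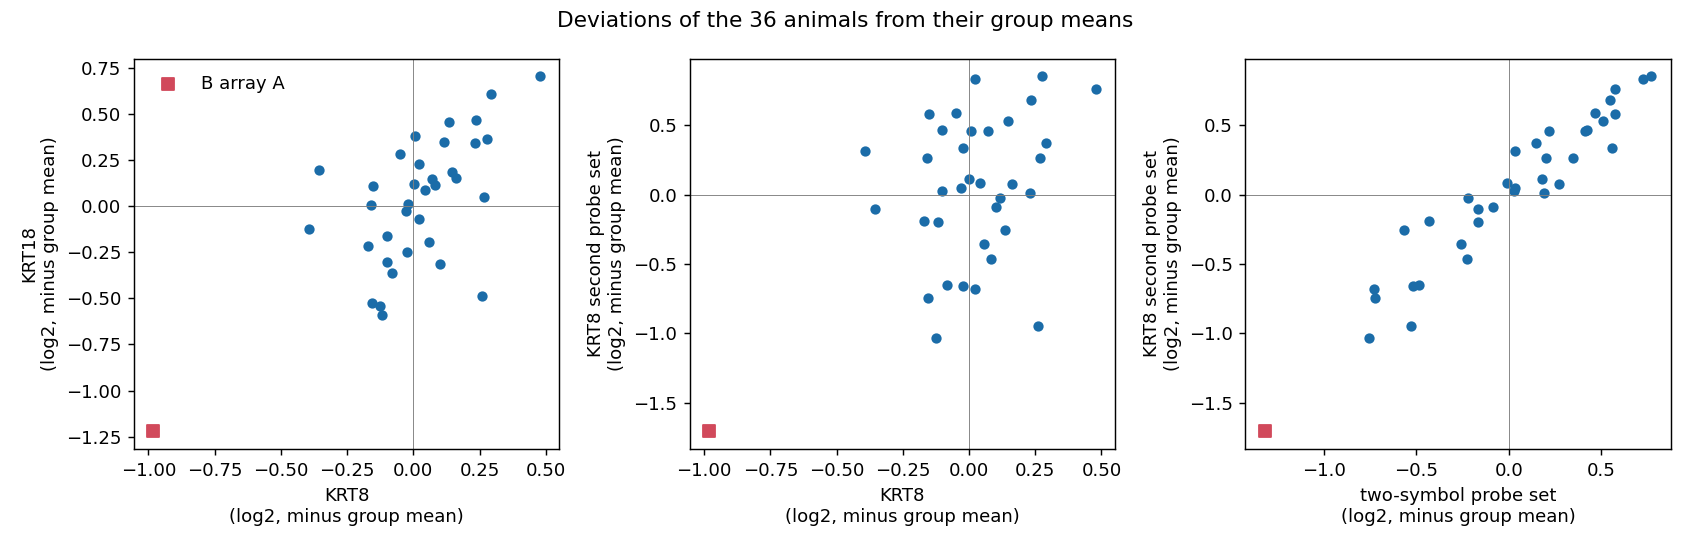
Deviation of each of 36 pigs from its group mean (log2) for KRT18 against KRT8, for the second against the first KRT8 probe set, and for the second KRT8 probe set against the 2-symbol probe set. Array A of B (red square) is the lowest point in each panel; r is 0.69, 0.49 and 0.96.

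The genes most like KRT8 were ranked by Pearson's r over the 36 arrays among 6189 genes, keratins and symbols starting with LOC left out. They were CLU (0.78), the secreted chaperone clusterin, VSNL1 (0.78), RHOV (0.77), PQLC3 (0.76) and DSP (0.76), the desmosomal anchor of keratin filaments. Within groups the r of DSP with KRT8 was 0.81. Array A of B, the lowest in KRT8, is included in these r, which are not given without it. For KRT10 the nearest were DTD1 (0.77), CLNS1A (0.74), XRCC5 (0.73), a DNA repair protein, CIDEB (0.73) and NUP37 (0.71), a nuclear pore protein. No epidermal marker was among these 5. Only 5 such markers were measured and most were dim, so their absence decides nothing about the epidermis.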

How the data were processed

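RNA of the mammary gland of 36 pigs was read on 1 porcine Affymetrix array each. Per the submitters' processing notes the deposited values were made with RMA (background correction, normalization and summary of probes); neither a version nor the base of the log was named there. The authors' deposited values, 1.55 to 13.74, were read as log2. Array number limits the precision.

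Probe sets were named by the platform annotation: 9149 had 1 symbol, 178 several and 11465 none. limma 3.58.1 (R 4.3.3) fitted 1 mean per group over all 36 arrays (27 residual and 4.16 prior degrees of freedom), two-sided, with Benjamini-Hochberg adjustment over 20792 probe sets per comparison, and was tested on simulated data. The members, gene lists and marker lists were chosen with earlier results of these data known. Every keratin is named; from each list at most 4 called members with the largest change, for KRT8 and KRT10 the 5 genes with the highest r, and TOP2A, CSN2, VIM, EPCAM and ACTA2 whether or not called. DSP, DST for estrogen, CALML5, SPINK5, KLK7 and SERPINB2 are named beyond this, chosen after their values were seen. Permutations (1e+05) shuffled pigs within groups. Alternatives covered filtering, normalization, centring, moderation, array weights, replicate letters, probe set choice, features, samples and single arrays left out. Setting array A of B aside in comparisons within backgrounds and against sham, and the runs on the second KRT8 probe set, were added after seeing the data. Sequences are not given here.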

Additional observations from a re-analysis of the deposited data

Results flagged for a closer look

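2 of 45 groups of 4 pigs held a value whose distance from its nearest neighbour took up most of the group's range, by Dixon's 95% criterion, which chance meets in about 1 of 20 groups. KRT8 in B array A was 11.3, with the next B value at 12.53. The second KRT8 probe set in BP array B was 8.60, with the next BP value at 9.81.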

How the results depend on the processing

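With all 36 arrays no keratin was called in the 3 average effects, the 3 interactions or B against sham. For estrogen the count became 1 with bright probe sets only (KRT18), 2 with a variance trend and robust moderation (KRT18, KRT19) and 1 with the mean of all probe sets of a gene (KRT8). With single arrays left out it ran from 0 to 2, above 0 without A of H or HEP, B of B or BEP, C of HE, and D of B, BE or BP. For haloperidol it was 1 with array weights (KRT19, lower) and 0 to 1 with arrays left out (A of B: KRT19; D of B or BE: KRT10, higher). For estrogen with progesterone it was 0 to 1 (A of B). For B against sham it was 1 with array weights (KRT18, lower) and 0 to 2 with arrays left out (D of B). It stayed 0 for progesterone and the other 2 interactions under every setting run. Signs turned in estrogen with haloperidol: KRT10 was -0.081 and KRT19 0.10 with array weights, and KRT8 0.11 with the mean of its probe sets. With arrays left out, ranges that crossed 0 were, for that interaction, -0.11 to 0.20 (KRT10), -0.19 to 0.16 (KRT19) and -0.23 to 0.015 (KRT8). They were also -0.15 to 0.0088 for KRT10 with estrogen, -0.11 to 0.010 for KRT8 with haloperidol and -0.026 to 0.12 for KRT10 with progesterone. The cause was not tested. Of 280 changes under other settings 271 kept direction and side of the threshold, 3 reversed and 6 passed it; of 1008 with an array left out, 972, 17 and 19. With the letters as a replicate block the count stayed 0 in these comparisons, and the adjusted p of KRT18 in HEP against HP was 0.0154 with the letter as a fixed term and 0.0124 as a random one. Its 1.11 cannot move with the letters, as each group holds each letter once. Same-letter pigs of other groups had a median r of 0.05, against -0.02 for pigs of other letters. Of these pairs, 52 of 144 and 101 of 432 had an r over 0.1. The best match of 10 of 36 arrays bore their own letter. These values do not settle whether the letters mark paired pigs, and the main fit did not use them.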
